A study of Rattus norvegicus with 24 samples.

Results

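Heme oxygenase 1 (Hmox1), the 3 superoxide dismutases (Sod1, Sod2, Sod3) and the enzymes and carriers that remove peroxide (Cat, Gpx1, Prdx3, Txn1, Txnrd1) were followed in the left ventricle of rats with salt-induced or exercise-induced cardiac hypertrophy. The members were all probe sets that the platform annotation assigns to these 9 gene symbols. A total of 8 genes had a probe set, among 4736 genes named in the whole table, and no probe set was annotated to Txn1. The 8 genes were measured by 18 probe sets of 8740, and 17 of the 18 were bright enough to be tested.

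Heme oxygenase 1 opens the heme ring and releases iron, carbon monoxide and biliverdin, and it is known as an inducible gene of oxidative stress. The dismutases turn superoxide into hydrogen peroxide in separate places: Sod1 in the cytosol, Sod2 in the mitochondrial matrix and Sod3 outside the cell. Catalase (Cat), glutathione peroxidase 1 (Gpx1) and the mitochondrial peroxiredoxin 3 (Prdx3) remove that peroxide, and thioredoxin reductase 1 (Txnrd1) keeps cytosolic thioredoxin reduced. In heart muscle, mitochondria fill much of the cell and are a main source of superoxide.

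All hearts came from Dahl salt-sensitive (DS) rats, which develop hypertension when fed salt; they were received when 5 weeks old and treated from 6 weeks of age. High salt rats ate a diet with 6% NaCl, and controls were sedentary age-matched rats on normal chow. Exercised rats ran daily on a treadmill under an exercise program of 6 weeks, which ended with 90 minutes a day at 16 m/min on an incline of 5 degrees. The titles give 3, 6 or 15 weeks for each array, without saying from when the weeks were counted, and list 24 columns in 8 groups of 3. All 3 treatments are present at 3 weeks and at 6 weeks, whereas the arrays of 15 weeks are controls and high salt rats only. The labels do not tie arrays to separate animals, and p-values therefore cover only array-to-array spread, which may be technical.

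Some arrays stood apart before any member was considered. Columns 2 and 3 of exercise at 3 weeks were identical to columns 2 and 3 of control at 3 weeks in all 8799 values, so the table held 22 distinct arrays. Both shared arrays were left out of the fit of 20 arrays, since their group is unknown. At 3 weeks, high salt was therefore compared with all 4 distinct non-salt arrays (1 control, 1 exercise and the 2 with both labels) in a fit of 22 arrays. The GAPDH 3' to 5' ratio, which rises when RNA is degraded, was 1.58, 2.48 and 3.99 in the 6-week controls and 1.09, 1.52 and 1.58 in the 15-week controls, against 0.989 to 1.18 in the other 16 distinct arrays. Each 6-week control had a higher ratio than every treated array of 6 weeks, so treatment and ratio cannot be told apart within that week. Calls against these controls are therefore also given with the ratio as a covariate and against the controls of 3 and 15 weeks. The latter group held the 1 control array of 3 weeks deposited under a single label and the 3 controls of 15 weeks. It differs in week from the treated arrays, and 2 of its arrays had ratios of 1.52 and 1.58. The beta-actin 3' to 5' ratio also set the 6-week controls apart, at 1.979 to 3.293. It did not do so for the 15-week controls, at 1.14 to 1.56 against 1.322 to 1.683 in high salt of 15 weeks. In the 16 arrays outside the controls of 6 and 15 weeks it was 1.015 to 1.683. Only the GAPDH ratio was used as a covariate. Cardiomyocyte markers were present on every array: 10 of 12 were measured, and the lowest single value was an intensity of 143.

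Member probe sets were called against the 15-week and 6-week controls, and Hmox1 at 15 weeks of high salt had the smallest adjusted p. Changes are differences of log2(intensity + 40) ± SE from limma, and a probe set was called at a Benjamini-Hochberg adjusted p under 0.05 over 6555 tested probe sets. Between high salt and control at 15 weeks, 3 of the 17 member probe sets were called higher (both of Hmox1 and 1 of Txnrd1) and 1 lower (Sod3), against 3.26% of all tested probe sets called higher and 3.89% called lower. The median member difference was 0.32, beside -0.04 for all tested probe sets. Fitted on the 15-week arrays alone, only the 2 Hmox1 calls passed.

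At 6 weeks, 6 of the 17 were called higher under high salt and none lower, against a background of 6.62% higher and 7.7% lower. These were single probe sets of Hmox1, Sod2, Sod3, Gpx1, Prdx3 and Txnrd1, and the median was 0.39 beside -0.15 for all. Under exercise at 6 weeks, 3 were called higher (Sod1, Gpx1 and Prdx3) and none lower, against 4.47% and 3.36%, with a median of 0.49 beside -0.12. The 2 treatments were set against the same 3 control arrays, so their lists are not independent. These controls also stood apart in tissue markers. Smooth muscle markers (4 measured of 7) summed to 4549 to 11035 in them, 2803 to 4409 under high salt and 2821 to 4199.9 under exercise. By each gene's brightest probe set, 3 of 4 were called lower under each treatment. By the second brightest, where a gene had one, 0 were called lower under salt and 1 under exercise. Adipocyte markers (5 of 7) summed to 6599 to 11479.5 in the controls, 4205 to 5230.5 under high salt and 5619 to 7120.3 under exercise, with 2 of 5 called lower under salt and 1 under exercise. Of 5 endothelial markers, 2 were called lower under each treatment, and 1 by the second brightest probe set. The part of these cells in the member calls was not tested. With the GAPDH ratio as a covariate, 0 of these 9 calls passed, and with the controls of 3 and 15 weeks in place of the 6-week controls 0 passed.

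Comparisons between treated groups, or at 3 weeks, gave at most 2 member calls each. High salt against exercise at 6 weeks gave 0 calls among members by limma, beside a background of 0.0153% called higher and 0% lower. At an unadjusted p under 0.05 were 2 of the 17 member probe sets and 466 of all 6555. High salt against non-salt hearts at 3 weeks gave 0 member calls, beside 0.137% and 0.0153%, with 3 of 17 at an unadjusted p under 0.05 beside 530 of 6555. Within high salt, 6 against 3 weeks gave 0 member calls, beside 0% and 0.0763%, with 1 of 17 at an unadjusted p under 0.05 beside 302 of 6555. From 6 to 15 weeks of high salt, 1 member probe set was called higher (Hmox1) and 1 lower (Sod3), beside 1.6% and 1.51%. The test of whether the salt difference itself changed from 6 to 15 weeks called 0 members, beside 0.748% in each direction. At an unadjusted p under 0.05 were 4 of 17, beside 1036 of 6555.

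**Figure D1:**
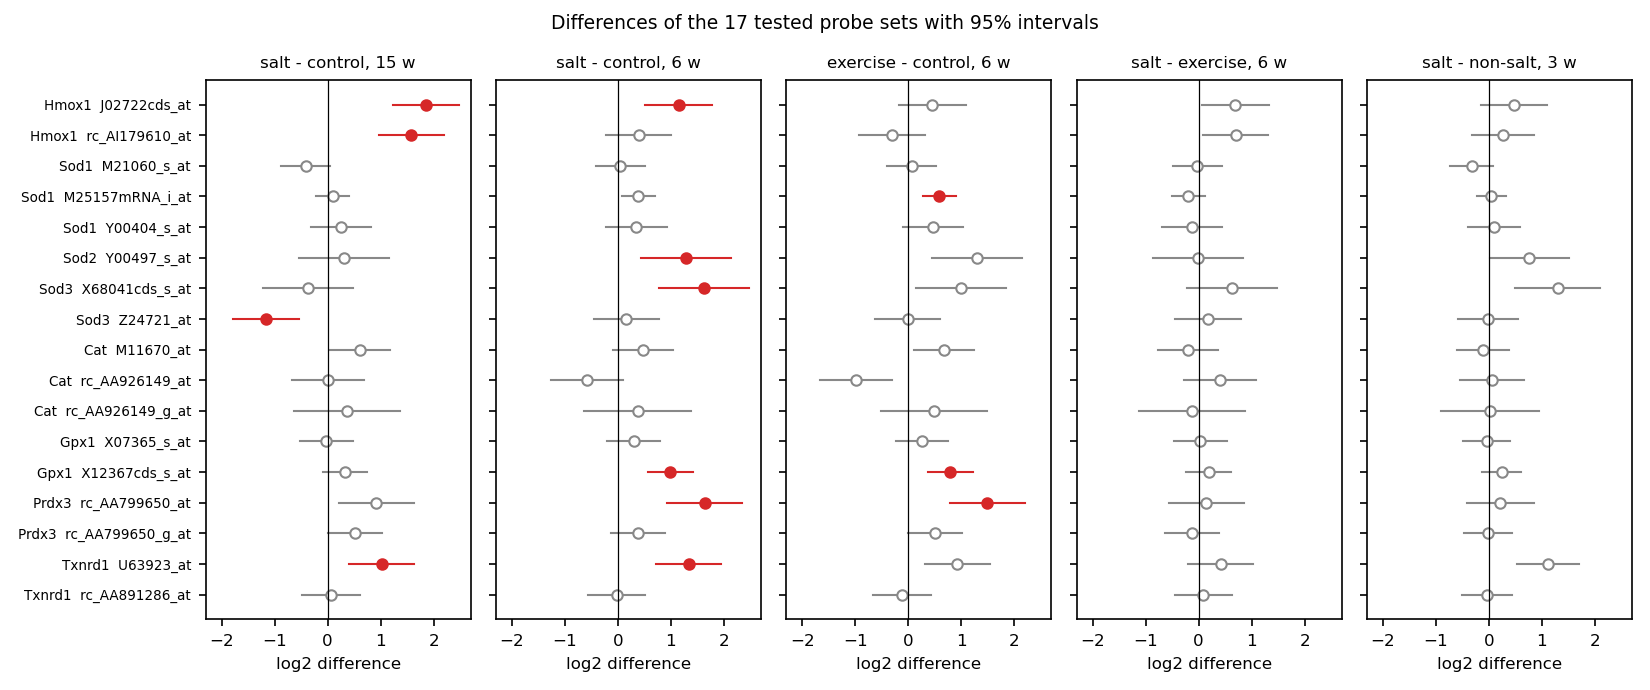
Difference of each of the 17 tested probe sets on the log2(intensity + 40) scale (x axis) with its 95% interval, in 5 comparisons; filled red points passed an adjusted p under 0.05. The 2 Hmox1 probe sets stand at 1.86 and 1.58 at 15 weeks, while no point is filled for salt against exercise or at 3 weeks.

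Hmox1 was higher in the 3 high salt hearts of 15 weeks than in their controls on both of its probe sets. On probe set rc_AI179610_at, the brighter of its 2, the high salt arrays of 15 weeks read 1113, 1138 and 1833. The controls of 15 weeks read 463, 380 and 408. The 3 high salt values were also above those of every other array, and the difference from control was 1.58 ± 0.29 (adjusted p = 0.0021).

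The same probe set was low everywhere else. At 6 weeks it read 677, 427 and 504 under high salt, 229, 472 and 547 in controls, and 183, 427 and 369 under exercise. At 3 weeks the high salt arrays read 529, 599 and 587, the single control 456, the single exercise array 378, and the 2 arrays with both labels 739 and 372. All these groups overlapped with at least one other. In order of their means, high salt at 15 weeks (1361 ± 408, SD, n = 3) was followed by high salt at 3 weeks (572 ± 37.6), high salt at 6 weeks (536 ± 128), the non-salt arrays of 3 weeks (486 ± 173), control at 15 weeks (417 ± 42.3), control at 6 weeks (416 ± 166) and exercise at 6 weeks (326 ± 127). Only the first of these was separated from its neighbour.

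The dimmer Hmox1 probe set, J02722cds_at, was also higher under high salt than in controls at 15 weeks. It read 211, 125 and 369 under high salt and 21.0, 35.1 and 38.1 in controls, a difference of 1.86 ± 0.30 (adjusted p = 0.00068). Here the high salt arrays of 15 weeks were not above every other array. The lowest of them (124.9) lay just under a high salt array of 3 weeks (125.7). The high salt arrays of 3 weeks read 82.7, 125.7 and 77.9 on this probe set. At 6 weeks the probe set read 106, 95.3 and 79.1 under high salt, 32.9, 13.5 and 15.5 in controls and 53.9, 16.8 and 64.1 under exercise. The 3 high salt arrays of 6 weeks lay above all controls and all exercised hearts of that week. They overlapped with the non-salt arrays of 3 weeks, at 78.8, 49.2, 99.7 and 18.9. The 6-week controls had the lowest mean of all groups on this probe set (20.6), below the added 40. The difference of high salt from control at 6 weeks was 1.15 ± 0.30 (adjusted p = 0.015). With the GAPDH covariate it became 0.90 (adjusted p = 0.64), and with controls taken from 3 and 15 weeks 0.72 (adjusted p = 0.35), and the call was lost without control array 2 or 3. The brighter probe set gave 0.39 ± 0.29 at 6 weeks and was not called (adjusted p = 0.41). Across the 22 arrays the 2 probe sets correlated with r = 0.74.

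Leaving out any 1 of the 6 arrays kept both 15-week Hmox1 calls, with differences of 1.35 to 1.70 and 1.52 to 2.17. With the GAPDH ratio as a covariate they were 1.80 and 1.79. Between 6 and 15 weeks of high salt, a comparison free of controls, the brighter probe set differed by 1.27 ± 0.29 (adjusted p = 0.018) and the dimmer by 0.95 ± 0.30 (adjusted p = 0.11), with no overlap on either. That call was lost without high salt array 3 of 15 weeks (adjusted p = 0.10) and without array 2 or 3 of 6 weeks. Whether salt raised Hmox1 more at 15 than at 6 weeks did not pass its own test: the difference of differences was 1.19 ± 0.42 (adjusted p = 0.17), and 1.53 without control array 1 of 6 weeks (adjusted p = 0.026).

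Salt and exercise differed for Hmox1 at 6 weeks by 0.70 (95% interval 0.08 to 1.31) on the brighter probe set and 0.69 (0.07 to 1.32) on the dimmer. Neither passed over all probe sets (adjusted p = 0.63 and 0.64). Exercise itself differed from control by -0.31 ± 0.29 and 0.45 ± 0.30, opposite in sign on the 2 probe sets and not called.

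**Figure D2:**
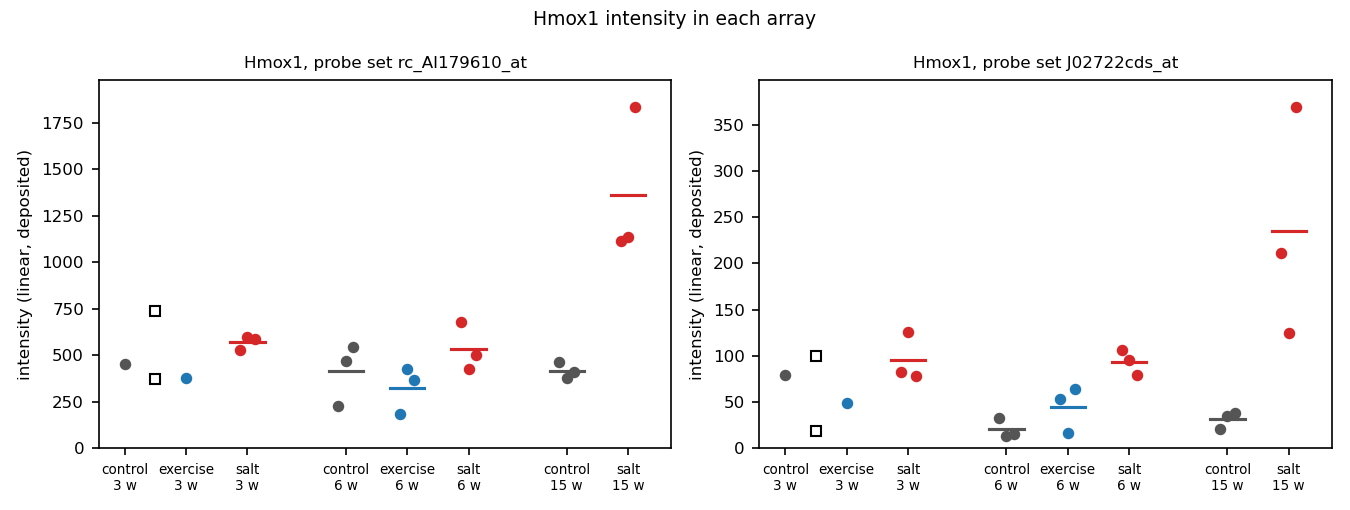
Deposited intensity of Hmox1 (y axis, linear) on each distinct array by group (x axis, with weeks), for its 2 probe sets; lines are means of groups of 3 and open squares are the 2 arrays deposited under both labels at 3 weeks. The 3 high salt arrays of 15 weeks, 1113 to 1833 at left and 125 to 369 at right, lie above the 15-week controls in both panels.

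Red blood cells hold much heme, and macrophages that take them up express Hmox1 strongly, so markers of both were read beside it. Of 13 red cell markers 4 were measured. Their summed intensity was 52814 to 71701 in the high salt hearts of 15 weeks, 30772 to 44489 in their controls and 22079 to 33809 in the 6-week groups. At 3 weeks it was 33655 to 39919 under high salt and 22138 to 25521 in the non-salt arrays, without overlap. There limma called 0 of the 4, with 3 at an unadjusted p under 0.05, and neither Hmox1 probe set was called. Of the 4, 3 were called higher at 15 weeks: Alas2, the red cell enzyme that starts heme synthesis, by 2.16, Slc4a1, the red cell anion exchanger, by 1.94, and Hbb-b1, a beta globin whose near-identical paralogs one probe set may not separate, by 0.70. All 4 were called higher from 6 to 15 weeks of high salt. The red cell signal thus stood highest in the same arrays as the brighter Hmox1 probe set, and its part in the Hmox1 result was not tested. Of 16 macrophage markers 8 were measured, which did not include Cd163, Cd68, Csf1r or Adgre1, and none was at 0. Their sum was 5174 to 7123 under high salt at 15 weeks and 5952 to 6973 in controls, with 1 of 8 called (Cd74, lower by -0.93). At 6 weeks, when the dimmer Hmox1 probe set was called, it was 7508 to 10906 under high salt and 5661 to 7659 in controls, with Cd74 called higher by 0.85 and Ptprc, a leukocyte phosphatase, lower by -0.85. By the second brightest probe set, where present, 0 of these 8 markers were called higher at 6 weeks and 1 lower. The part of these cells was not tested. In these whole-tissue samples, more cells of a type and more RNA per cell cannot be told apart.

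Of the dismutases, Sod3 was lower at 15 weeks of high salt. On its brighter probe set, Z24721_at, the high salt arrays read 608, 607 and 1127 and the controls 1203, 2606 and 1626. The groups did not overlap. The difference was -1.16 ± 0.30 (adjusted p = 0.020). At 6 weeks the same probe set read 1433, 1649 and 1880 under high salt, 1356, 1120 and 2067 in controls and 1138, 1999 and 1344 under exercise, with full overlap. High salt at 15 weeks was also lower than high salt at 6 weeks, by -1.10 ± 0.30 (adjusted p = 0.046). The 15-week call was lost without high salt array 1 or 2 or control array 2 or 3 (adjusted p = 0.052 to 0.14), and the call over time without any 1 of 5 of its 6 arrays.

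The other Sod3 probe set, X68041cds_s_at, was dimmer and moved differently. It read 55.7, 254 and 285 under high salt at 6 weeks against 33.3, 20.6 and 29.9 in controls, a difference of 1.63 ± 0.40 (adjusted p = 0.011). Exercised hearts lay between, at 62.0, 160 and 80.2. The salt call was lost without high salt array 2 or 3 (adjusted p = 0.060 and 0.073), and the difference was 1.14 with the GAPDH covariate and 0.60 against the controls of 3 and 15 weeks, neither called. At 3 weeks the 3 high salt arrays read 356, 355 and 322, above the control at 228, the exercise array at 87.5 and the 2 arrays with both labels at 129 and 63.0. That difference of 1.30 ± 0.39 did not pass (adjusted p = 0.26). At 15 weeks it read 20.1, 36.5 and 94.6 under high salt and 136, 54.2 and 41.2 in controls, which overlapped. The salt difference at 15 weeks minus that at 6 weeks was -2.0 ± 0.57 on this probe set (adjusted p = 0.087) and -1.32 ± 0.42 on the brighter one (adjusted p = 0.13). Without high salt array 1 of 6 weeks the first of these was -2.57 and passed (adjusted p = 0.0094).

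Sod3 protein binds to the extracellular matrix, much of which collagen-making cells produce, while these arrays read only RNA. Markers of such cells were read beside Sod3. Of 9 measured fibroblast markers, 4 were called lower at 15 weeks of high salt: Col1a1 by -1.44, Col1a2 by -1.59 and Col3a1 by -3.04, chains of the fibrillar collagens, and Lum, the matrix protein lumican, by -1.22. Their list summed to 17779 to 35551 under high salt and 32143 to 45145 in controls. Smooth muscle markers summed to 2325 to 2894 and 3787 to 5093, and endothelial markers (5 measured of 10) to 1398 to 1685 and 1899 to 2642, both without overlap. By limma, 0 of the 4 smooth muscle markers were called, with 2 at an unadjusted p under 0.05. Of the 5 endothelial markers 0 were called, with 3 at an unadjusted p under 0.05. The part of these cells in the Sod3 result was not tested.

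Sod2, the mitochondrial dismutase, had 1 probe set, Y00497_s_at. At 6 weeks it read 655, 683 and 1042 under high salt, 936, 792 and 635 under exercise, and 646, 247 and 150 in controls. The 2 lowest values belong to the control arrays with GAPDH ratios of 2.48 and 3.99. High salt differed from control by 1.29 ± 0.41 (adjusted p = 0.039) and exercise by 1.29 ± 0.41 (adjusted p = 0.056). The salt call was lost without high salt array 2 or 3 or control array 2 or 3 (adjusted p = 0.069 to 0.22), while exercise passed without control array 1 (1.81, adjusted p = 0.0037). Adding the GAPDH covariate turned the signs, to -0.43 and -0.53. At 15 weeks high salt arrays read 762, 669 and 514 and controls 860, 217 and 664, with full overlap. At 3 weeks high salt arrays read 1444, 1176 and 1072, above the non-salt arrays at 706, 576, 706 and 854, but the difference of 0.76 ± 0.36 did not pass (adjusted p = 0.61). In a fit of the 3-week arrays alone, Sod2, the dimmer Sod3 probe set and 1 Txnrd1 probe set were called at 3 weeks (adjusted p = 0.037, 0.039 and 0.037).

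Sod1, the cytosolic dismutase, had 3 tested probe sets and no call under salt. They gave 15-week differences of -0.41 ± 0.22, 0.10 ± 0.15 and 0.25 ± 0.27, none called. Only M25157mRNA_i_at was called anywhere, under exercise at 6 weeks, where it read 2570, 2460 and 2331 against 1726, 1477 and 1675 in controls. Exercise did not overlap with control, and the difference was 0.58 ± 0.15 (adjusted p = 0.020). It was 0.55 with the GAPDH covariate (adjusted p = 0.69) and 0.25 against the controls of 3 and 15 weeks, and the call was lost without exercise array 1 or 2 or control array 2. High salt arrays of 6 weeks read 2018, 2193 and 2196, also above all controls, with a difference of 0.39 ± 0.15 that did not pass (adjusted p = 0.087). The other 2 probe sets overlapped between exercise and control, with differences of 0.07 and 0.47. The 3 probe sets correlated across arrays with r from -0.36 to 0.56.

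Peroxide removal in mitochondria was read through Prdx3, whose 2 probe sets correlated with r = 0.83. On rc_AA799650_at the 6-week arrays read 3795, 5206 and 4698 under high salt, 4279, 3594 and 4451 under exercise, and 2671, 1427 and 754 in controls. No treated array overlapped with a control, and the differences were 1.64 ± 0.34 for salt (adjusted p = 0.0033) and 1.49 ± 0.34 for exercise (adjusted p = 0.010). The salt call held without any 1 of its arrays, and the exercise call was lost without control array 3 (1.05, adjusted p = 0.073). The 3 controls fell in the reverse order of their GAPDH ratios, and adding that ratio as a covariate gave -0.15 and -0.41. The second probe set, rc_AA799650_g_at, gave 0.38 ± 0.24 and 0.51 ± 0.24, not called.

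At 15 weeks the same split appeared among controls. Prdx3 on rc_AA799650_at read 4703 in control array 1, whose GAPDH ratio was 1.09, and 1723 and 2202 in control arrays 2 and 3, with ratios of 1.52 and 1.58. High salt arrays read 5306, 5143 and 4568. The difference of 0.92 ± 0.34 did not pass (adjusted p = 0.11), and without control array 1 it was 1.34 (adjusted p = 0.013). Across groups outside the controls of 6 and 15 weeks, Prdx3 stayed between 2936 and 5306.

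Other mitochondrial genes were called higher at 6 weeks as well. Of 25 measured genes of mitochondrial respiration and transport, 6 were called higher under high salt and 0 lower, with a median of 0.40, and 4 were called higher under exercise, with a median of 0.24. Vdac1, the outer membrane pore, differed by 2.73 and 2.82, Ndufs1, a complex I subunit, by 2.20 and 2.02, and Cs, citrate synthase, by 1.82 and 1.76. With the GAPDH covariate none of these 10 calls passed. At 15 weeks limma called 0 of 25, with 8 at an unadjusted p under 0.05, and their median was -0.08.

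**Figure D3:**
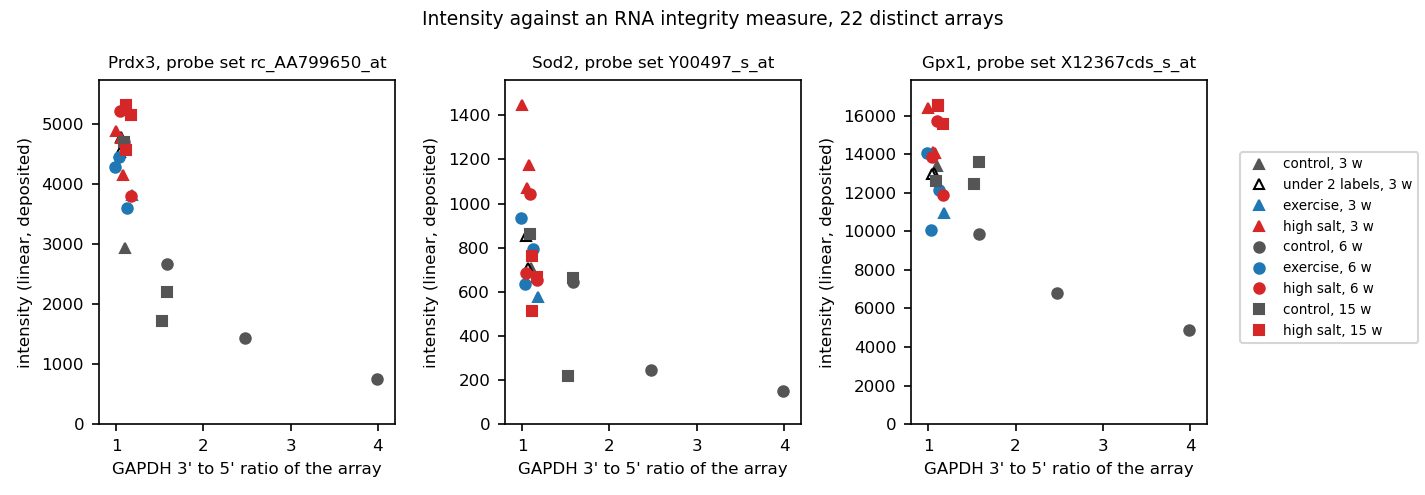
Deposited intensity (y axis, linear) of Prdx3, Sod2 and Gpx1 on the 22 distinct arrays against the GAPDH 3' to 5' ratio of each array (x axis); colours and shapes give treatment and weeks, and "under 2 labels" marks the arrays deposited as both control and exercise. The control arrays with ratios of 2.48 and 3.99 hold the lowest values of Gpx1 and Prdx3, and for Sod2 the array at 1.52 lies between them.

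Gpx1, the cytosolic glutathione peroxidase, gave a like result on X12367cds_s_at. At 6 weeks it read 11885, 13883 and 15722 under high salt, 14083, 12173 and 10078 under exercise and 9879, 6811 and 4886 in controls. Treated and control arrays did not overlap, with differences of 0.99 ± 0.20 for salt (adjusted p = 0.0032) and 0.79 ± 0.20 for exercise (adjusted p = 0.020). The GAPDH covariate left 0.23 and -0.01, and the controls of 3 and 15 weeks gave 0.08 and -0.12. The salt call held without any 1 array, and the exercise call was lost without exercise array 1 or 2 or control array 2 or 3. At 15 weeks high salt arrays read 16499, 15547 and 16533, all above the controls at 12627, 12471 and 13611, but the difference of 0.33 ± 0.20 did not pass (adjusted p = 0.41). The second tested probe set, X07365_s_at, gave 0.30 ± 0.24 and 0.26 ± 0.24 at 6 weeks and -0.02 ± 0.24 at 15 weeks. The third, M21210_i_at, read 8.4 to 20.8 on all arrays and was too dim to test.

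Catalase passed in none of the 8 comparisons as fitted here. On M11670_at the 15-week high salt arrays read 1136, 770 and 787 and the controls 678, 402 and 651, without overlap, and the difference of 0.62 ± 0.27 did not pass (adjusted p = 0.21). At 6 weeks it read 650, 687 and 1049 under high salt, 1090, 1229 and 539 under exercise and 594, 577 and 480 in controls, giving 0.48 ± 0.27 and 0.68 ± 0.27. Without exercise array 3 the exercise difference was 1.03 and passed (adjusted p = 0.030). The dim probe set rc_AA926149_at pointed the other way under exercise, at 13.8, 25.2 and 4.9 against 80.0, 84.5 and 42.9, a difference of -0.99 ± 0.32 (adjusted p = 0.064). It passed with the shared 3-week arrays counted as controls (adjusted p = 0.047) or as exercise (0.045) and with all 24 columns (0.034). The third, rc_AA926149_g_at, overlapped in every comparison, with differences between -0.12 and 0.49.

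Txnrd1, the cytosolic thioredoxin reductase, was high under salt at all 3 time points on 1 of its 2 probe sets. On U63923_at high salt arrays read 556, 578 and 434 at 3 weeks, 216, 561 and 539 at 6 weeks and 439, 494 and 687 at 15 weeks. Controls read 176, 101 and 140 at 6 weeks and 342, 177 and 230 at 15 weeks, and the non-salt arrays of 3 weeks 187, 142, 329 and 254. High salt lay above the non-salt arrays at 3 weeks and above the controls at 6 and 15 weeks without overlap. The differences were 1.11 ± 0.28 at 3 weeks (adjusted p = 0.15), 1.34 ± 0.29 at 6 weeks (adjusted p = 0.0052) and 1.02 ± 0.29 at 15 weeks (adjusted p = 0.039).

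Exercised hearts of 6 weeks read 309, 322 and 258 on this probe set, above all 6-week controls and above high salt array 1 of that week, with a difference of 0.92 ± 0.29 that did not pass (adjusted p = 0.057; 0.036 without control array 1). Salt and exercise differed by 0.42 (95% interval -0.20 to 1.03). In order of the means, high salt at 15 weeks (540 ± 130, SD, n = 3), at 3 weeks (523 ± 77.4) and at 6 weeks (439 ± 193) were followed by exercise at 6 weeks (296 ± 33.8), control at 15 weeks (250 ± 84.1), the non-salt arrays of 3 weeks (228 ± 81.4) and control at 6 weeks (139 ± 37.5), and every pair of neighbours overlapped. The 15-week call was lost without any 1 of high salt arrays 1, 2 and 3 and control arrays 2 and 3 (adjusted p = 0.055 to 0.20). It also missed with the GAPDH covariate (0.89, adjusted p = 0.088). The 6-week difference was 0.81 with that covariate and 0.74 against the controls of 3 and 15 weeks, neither called.

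The brighter Txnrd1 probe set did not show this. On rc_AA891286_at high salt arrays of 15 weeks read 1109, 909 and 1760 and controls 1026, 1362 and 1107, a difference of 0.06 ± 0.26. It differed by -0.02 ± 0.26 at 6 weeks and -0.03 ± 0.23 at 3 weeks, and correlated with U63923_at at r = -0.07 over the 22 arrays. Both are annotated to the same gene, and which transcripts each one reads was not tested.

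**Figure D4:**
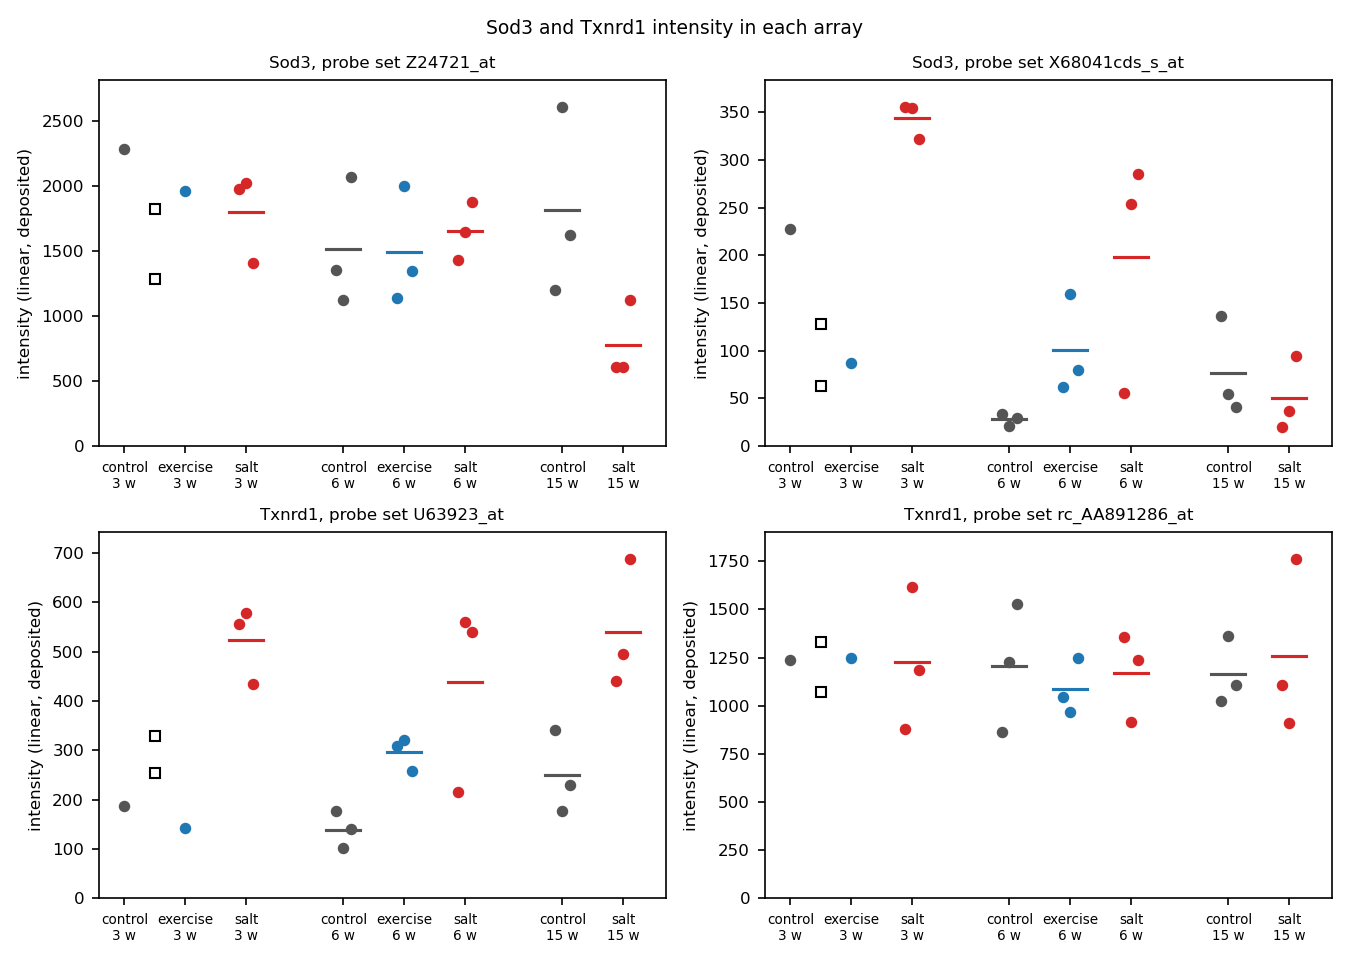
Deposited intensity (y axis, linear) of Sod3 and Txnrd1 on each distinct array by group (x axis, with weeks), 1 panel per probe set; lines are means of groups of 3 and open squares are the 2 arrays deposited under both labels at 3 weeks. Sod3 Z24721_at is lowest in high salt at 15 weeks (607 to 1127), and Txnrd1 U63923_at under high salt is above the non-salt arrays at 3 weeks and the controls at 6 and 15 weeks, while 1 of its 6-week values (216) lies below the exercise arrays.

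Hmox1 and Txnrd1 are textbook targets of the factor Nrf2, which binds the antioxidant response element, so promoter windows of the members were searched for its core. RefSeq's GRCr8 table held 8 windows for 7 of the members (all but Hmox1 and Sod3), each from 250 bases before to 50 after a start, and the core was searched as TGACNNNGC on both strands. It was in 2 of the 8 windows and in 12.1% of all 33469 windows in the table. Shown are the 2 member windows that hold it, 5′ to 3′ along the gene's strand, with the match in capitals; both matches lie on the opposite strand. The Txnrd1 window is chr7:22755855-22756154 on the minus strand, with the match at -78 to -70 from the start, and the Sod2 window is chr1:50050119-50050418 on the minus strand, with the match at -35 to -27.
Txnrd1: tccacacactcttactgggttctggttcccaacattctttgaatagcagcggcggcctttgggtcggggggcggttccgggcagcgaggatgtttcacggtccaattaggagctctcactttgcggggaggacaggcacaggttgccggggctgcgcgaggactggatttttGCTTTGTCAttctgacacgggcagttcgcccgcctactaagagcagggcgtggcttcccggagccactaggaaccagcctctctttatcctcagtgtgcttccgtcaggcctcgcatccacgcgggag
Sod2: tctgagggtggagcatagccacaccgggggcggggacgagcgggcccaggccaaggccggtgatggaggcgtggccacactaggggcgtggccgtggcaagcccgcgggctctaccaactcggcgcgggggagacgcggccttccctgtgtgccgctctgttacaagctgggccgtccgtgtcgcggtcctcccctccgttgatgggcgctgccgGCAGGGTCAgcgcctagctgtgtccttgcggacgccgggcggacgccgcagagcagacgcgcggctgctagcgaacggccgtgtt
A match describes these letters only. The second Txnrd1 window and those of Sod1, Cat, Gpx1, Prdx3 and Txn1 held none.

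Beyond the members, the genes around them were read from lists. Of 40 other genes of superoxide, peroxide and glutathione defence, 18 were measured by a tested probe set. At 15 weeks of high salt 2 were called higher and 1 lower, with a median of 0.10. Gclm, the modifier subunit of the enzyme that starts glutathione synthesis, read 429 ± 124 under high salt and 181 ± 39.2 in controls (SD, n = 3), a difference of 1.07 ± 0.27 (adjusted p = 0.020). Nqo1, a quinone reductase, read 563 ± 251 against 274 ± 18.1, a difference of 0.85 ± 0.24 (adjusted p = 0.037). Selenow, a small selenoprotein, was lower, at 485 ± 129 against 786 ± 148 (-0.67 ± 0.20, adjusted p = 0.045). Each of the 3 lost its call when some single arrays were left out: Gclm without high salt array 1 or 3 or control array 1, Nqo1 without any 1 of the 6 but high salt array 2, and Selenow without any 1 but high salt array 1.

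At 6 weeks the same list had 1 gene higher and 1 lower under high salt and 1 higher under exercise. Txnrd2, the mitochondrial thioredoxin reductase, differed by 1.03 ± 0.23 under salt (adjusted p = 0.0054) and 0.78 ± 0.23 under exercise (adjusted p = 0.041). Gpx7, a glutathione peroxidase of the endoplasmic reticulum, differed by -1.55 ± 0.50 under salt (adjusted p = 0.042). It read 26.3 to 66.4 under high salt and 53.4 to 577.1 in the 6-week controls, which overlapped. Without 1 array at a time, the Gpx7 call held in 1 of 6 fits. The Txnrd2 call held in 6 of 6 under salt and in 2 of 6 under exercise. None of the 3 calls passed with the GAPDH covariate, and Gpx7 turned sign there, to 0.46.

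With each gene read by its brightest probe set, no heme or iron gene passed the test at 15 weeks, when Hmox1 was high; by the second brightest, 1 was called lower. Of 25 listed, 15 were measured, and limma called 0 at 15 weeks of salt, with 4 at an unadjusted p under 0.05 and a median of 0.03. The smallest adjusted p was 0.14, for Alad, a heme synthesis enzyme. Alas1, the enzyme that limits heme synthesis outside red cells, read 3449 ± 413 at 3 weeks, 3639 ± 824 at 6 weeks and 984 ± 278 at 15 weeks of high salt (SD, n = 3). Without salt it read 3013 ± 166 at 3 weeks (n = 4) and 2554 ± 565 under exercise at 6 weeks (n = 3). It fell from 6 to 15 weeks of high salt by 1.86 ± 0.42 on the log2 scale (adjusted p = 0.014), a call lost without high salt array 1 or 3 of 15 weeks or array 3 of 6 weeks. Controls read 1178 ± 1050 at 6 weeks and 2056 ± 746 at 15 weeks. The difference of salt differences was -2.95 ± 0.59 (adjusted p = 0.012) and -1.32 with the GAPDH covariate (adjusted p = 0.13). At 6 weeks Alas1, Tfrc (the transferrin receptor) and Ireb2 (an iron-sensing RNA-binding protein) were called higher under salt, by 1.95, 0.93 and 0.69, and Cp (ceruloplasmin) lower by -0.79, and Alas1 was called higher under exercise, by 1.45. None of these 5 calls passed with the GAPDH covariate. Without 1 array at a time, the salt call of Alas1 held in 6 of 6 fits. That of Cp held in 2, Tfrc in 1 and Ireb2 in 0, and the exercise call of Alas1 held in 1.

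Among 16 listed sources of superoxide and peroxide, 8 were measured. Cyba, a membrane subunit of the phagocyte-type NADPH oxidase, was lower at 15 weeks of high salt, at 361 ± 97.3 against 1034 ± 207 in controls (SD, n = 3). The difference was -1.43 ± 0.25 (adjusted p = 0.0011) and kept its call without any 1 of the 6 arrays, and it was -1.01 ± 0.25 from 6 to 15 weeks of salt (adjusted p = 0.025), a call lost without high salt array 1 or 2 of 15 weeks or array 1 of 6 weeks. Maoa, a monoamine oxidase of the mitochondrial outer membrane that makes hydrogen peroxide, was higher at 15 weeks, at 4917 ± 1780 against 2468 ± 442 (0.93 ± 0.25, adjusted p = 0.025), though that call was lost without high salt array 2 or 3 or control array 1 or 2. From 6 to 15 weeks of salt it was higher by 1.27 ± 0.25 (adjusted p = 0.0046), and that call held without any 1 array. At 6 weeks Maoa was higher under salt by 0.94 and Nos3, the endothelial nitric oxide synthase, lower by -1.29, and under exercise Maob was lower by -1.36 and Nos3 by -1.02. None of these 4 calls passed with the GAPDH covariate, where both Nos3 differences turned positive. By the second brightest probe set, where present, 0 genes of this list were called lower under salt and 1 under exercise. By it, 1 was called higher under each treatment. Without 1 array at a time, Nos3 kept its call in 5 of 6 fits under salt and 1 of 6 under exercise. Maoa kept its salt call in 3 of 6 and Maob its exercise call in 6 of 6.

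The genes whose pattern over the 22 arrays was most like that of the brighter Hmox1 probe set were Emb, Ncam1 and Spp1, each with r = 0.81 on the log2 scale. Spp1, osteopontin, read 340 to 1273 in the high salt hearts of 15 weeks and 49.1 to 501 elsewhere. Ncam1, a cell adhesion molecule, read 939 to 1224 against 49.9 to 194. Emb, embigin, read 213 to 311 against 26.0 to 108. Without the 3 high salt arrays of 15 weeks the correlations with Hmox1 were 0.43 for Emb, 0.33 for Ncam1 and 0.41 for Spp1 over 19 arrays, and all these arrays share their scaling.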

How the data were processed

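Total RNA of left ventricles was measured on an Affymetrix rat expression array, per the labels' protocols and probe names. Each deposited value is a linear intensity of 1 probe set on 1 array; how the authors summarised probes, and with which software, is not given in the sources used here. Column means after trimming 2% at each end lay between 500.767 and 501.021, so the deposited scaling was kept. Left out were 59 control probe sets. Gene symbols came from the platform annotation, which can be old: 7018 probe sets had 1 symbol, 308 had several and 1473 had no entry. Detection calls were not used, and precision is limited by the number of arrays.

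Intensities were taken as log2(value + 40), a scale that understates changes of dim genes. Not tested were probe sets whose mean log2 value was under the 25th percentile over the 22 distinct arrays, leaving 6555. limma 3.58.1 in R 4.3.3 fitted 1 mean per group to 20 arrays (12 residual degrees of freedom; 15 for the 3-week comparison, on 22 arrays), with empirical Bayes moderation and an intensity trend; p-values are two-sided and adjusted by the Benjamini-Hochberg method over 6555 probe sets. The spread of a group of 1 array is taken from the other groups. The fit was tested on simulated data.

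Every member probe set is reported. For other listed genes the brightest tested probe set was used, with up to 4 members of smallest p named per list and comparison, and the 3 genes most like Hmox1 were taken by Pearson correlation. The members, lists and tests were chosen with earlier results of these data known. Same-numbered arrays of different groups did not deviate together, so numbers were not used as a block. Alternatives covered the pseudocount, filter, normalization, trend, arrays in the fit, GAPDH covariate, control arrays and single arrays left out.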

Additional observations from a re-analysis of the deposited data

Results flagged for a closer look

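The salt difference at 15 weeks minus that at 6 weeks was tested across all 6555 tested probe sets. Of these, 0.748% were called higher and 0.748% lower. Among the lists read beside the members, 7 genes passed by their brightest probe set. In the heme and iron list, Alas1 gave -2.95 (adjusted p = 0.012), as described above. Among red cell markers, Alas2 gave 2.16 (adjusted p = 0.0027), Slc4a1 2.13 (adjusted p = 0.00037) and Hbb-b1 1.22 (adjusted p = 0.030). The fibroblast marker Col3a1 gave -3.55 (adjusted p = 0.00034), the macrophage and antigen-presentation gene Cd74 -1.78 (adjusted p = 0.00046) and the adipocyte gene Lipe 1.47 (adjusted p = 0.012). By the second brightest probe set, where present, 0 adipocyte markers and 2 red cell markers were called higher. Called lower by it were 2 fibroblast markers, 1 macrophage marker, 1 cardiomyocyte marker and 1 heme or iron gene. No member passed this test. The GAPDH ratios of the 6-week controls enter each of these values, and their part was not tested for the cell type markers.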

How the results depend on the processing

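Both Hmox1 calls at 15 weeks held under every alternative run in which their probe set was tested, with 1.47 to 1.80 on the brighter and 1.29 to 2.46 on the dimmer (the median filter left the dimmer untested). Of the 15 member calls, 15 held with a pseudocount of 10 or 100, 14 with quantile normalization, 14 without the intensity trend, 12 without a filter and 12 of 12 with the filter at the median, but 5 with the GAPDH ratio as a covariate and 5 in fits on the compared groups alone. Against the controls of 3 and 15 weeks, 0 of 9 held. Leaving out 1 array at a time kept 57 of 90. Same-numbered arrays of different groups deviated with correlations of -0.27 to 0.24 (median -0.03, 45 pairs), so the replicate numbers do not pair the arrays; with the replicate block 14 of the 15 calls held, Txnrd1 at 15 weeks missed (adjusted p = 0.059), and exercise called 5 members (4 higher, and Cat lower, adjusted p = 0.048) in place of 3.

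Counts that moved by over 1.5 times follow. With only the compared groups, called probe sets were 266 (from 469) for salt at 15 weeks, 384 (from 939) for salt at 6 weeks, 255 (from 513) for exercise, 2 (from 1) for salt against exercise, 100 (from 10) at 3 weeks, 3 (from 5) for salt at 6 against 3 weeks, 105 (from 204) for 15 against 6 weeks and 36 (from 98) for the difference of salt differences; member calls were 2, 2 and 0 against controls, 3 at 3 weeks and 1 for 15 against 6 weeks. With the GAPDH covariate they were 13 for salt at 6 weeks, 0 for exercise, 4 for salt against exercise and 34 for the difference of differences, with 0 members against the 6-week controls. With the controls of 3 and 15 weeks they were 17 for salt and 3 for exercise, with 0 members. With all 24 columns, exercise called 772 with 6 members (5 higher), salt against exercise 3 and the difference of differences 181. With the shared arrays counted as exercise, exercise called 5 members, salt against exercise 0, 3 weeks 1 and the difference of differences 150; counted as controls, exercise called 6 members. The median filter gave 5 exercise members. No filter, quantile normalization and no trend each gave 0 for salt against exercise and 1 member for 15 against 6 weeks, and no filter and no trend gave 6 at 3 weeks. With the 1 control array of 3 weeks in place of all non-salt arrays, 3 weeks gave 0. Signs turned with the GAPDH covariate, none of them called: under salt at 6 weeks Prdx3 -0.15, Sod2 -0.43, Gpx7 0.46, Alas1 -0.21, Nos3 0.0936, Atp5pb -0.0068 and Idh2 -0.10; under exercise Prdx3 -0.41, Gpx1 -0.0079, Sod2 -0.53, Alas1 -0.85, Nos3 0.44 and Idh3g -0.0013. Against the controls of 3 and 15 weeks, Maoa under salt turned to -0.18 and Gpx1 under exercise to -0.12. The cause was not tested.

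Without 1 array at a time, called probe sets ranged from 212 to 539 for salt at 15 weeks (2 to 6 members), 456 to 1225 for salt at 6 weeks (4 to 6), 210 to 851 for exercise (1 to 5), 0 to 7 for salt against exercise (0), 0 to 8 at 3 weeks (0), 2 to 10 for salt at 6 against 3 weeks (0), 140 to 189 for 15 against 6 weeks (0 to 2) and 53 to 293 for the difference of differences (0 to 2). With each gene's second brightest probe set, the called count of 4 of 32 list and comparison pairs moved by over 1.5 times. These pairs cover the other defence, heme and iron, superoxide source and mitochondrial lists, not the members or cell type markers. Smooth muscle markers called lower at 6 weeks went from 3 to 0 under salt and from 3 to 1 under exercise. Members called higher went from 2 to 0 under exercise and from 3 to 4 under salt at 6 weeks.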
